A study of Homo sapiens with 42 samples.

Results

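SUPB15 is an established human B-cell precursor acute lymphoblastic leukaemia (ALL) line that carries the BCR-ABL1 fusion, and its response to L-asparaginase is described here across all genes. The response was measured in 3 libraries from cells given L-asparaginase at 1 IU/ml for 4 h and in 3 libraries from untreated cells of the same line. These 6 libraries, chosen as every SUPB15 column of the deposited counts, are part of 42 libraries that cover 7 ALL lines in the same 2 conditions. The medium was RPMI-1640 with serum, extra glutamine and antibiotics, for treated and untreated cells alike. The series describes the 3 libraries of a group as independent experiments. SUPB15 is 1 line from 1 leukaemia, and only 1 dose and 1 time were sampled. Of 50650 gene symbols counted, 15121 passed the filter on low counts and were tested.

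L-asparaginase is a bacterial enzyme drug that breaks down asparagine and, more slowly, glutamine in the medium, and it is a core drug of ALL treatment. When an amino acid runs short, uncharged tRNAs activate the kinase GCN2 (gene EIF2AK4), which phosphorylates the translation factor eIF2. Bulk protein synthesis drops while the transcription factor ATF4 is translated more and turns on genes of amino acid uptake, amino acid synthesis and stress. This branch is called the amino acid response, and the wider programme, which is shared with endoplasmic reticulum stress, haem shortage and viral RNA, the integrated stress response. Low amino acids also quiet the growth kinase mTORC1. BCR-ABL1 is a constantly active tyrosine kinase that signals through STAT5, RAS-ERK and PI3K-AKT. B-cell precursors in addition carry the pre-B-cell receptor and the enzymes that recombine immunoglobulin genes.

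Library totals were 24.12, 70.66 and 40.19 M counts (M, mega) with L-asparaginase and 34.19, 46.22 and 59.13 M in untreated cells, for the columns lettered A, B and C. A pair of libraries stood apart. The counts of untreated A differed from those of untreated B and C by a chi-square of 121 and 130 per degree of freedom, against 16.5 between B and C and 17.4 to 41.5 between the treated libraries. L-asparaginase C held 95 genes at 1 CPM (CPM is the count divided by the library total in M) or more that had at most 3 counts in the 5 other libraries together, 247 CPM in sum, among them SNAP25 at 27.1 CPM. Of 16 neuronal markers 3 were at 0 in L-asparaginase C, 10 and 11 in the other treated libraries and 9 to 12 in the untreated ones, with summed levels of 67.8 to 123 CPM with L-asparaginase and 77.8 to 90.0 CPM in untreated cells. Most of that sum was SYT1, at 66.1 to 82.8 CPM with L-asparaginase and 73.7 to 86.9 CPM in untreated cells. With so few counts in the other libraries, none of the 95 genes could pass the filter, so none was tested. The same source could add reads to genes that the other libraries also hold, which was not tested. SYP, for instance, had 0.489, 0.430 and 4.53 CPM in L-asparaginase A, B and C and 0.541 to 1.08 CPM in untreated cells. The share of counts in 5 small noncoding RNAs was 8.91%, 10.2% and 14.3% with L-asparaginase and 6.45%, 11.02% and 11.2% in untreated cells. All 10 B-lineage markers were detected in every library, with summed levels of 2717 to 2980 CPM with L-asparaginase and 2444 to 3410 CPM in untreated cells. Defining T-cell, erythroid and epithelial genes were at or near 0, except LCK at 10.4 to 13.1 CPM with L-asparaginase and 5.75 to 8.45 CPM in untreated cells. Summed stromal markers, nearly all of it PDGFRB, came to 22.4 to 24.9 CPM with L-asparaginase and 5.92 to 7.08 CPM in untreated cells, with 5 or 6 of 10 at 0 in treated and 6 or 7 in untreated libraries. Summed myeloid markers, led by MPO and CSF1R, came to 15.1 to 23.5 CPM with L-asparaginase and 7.54 to 15.3 CPM in untreated cells, with 3 to 5 of 10 at 0. The part of other cells in the results was not tested. Because 1 library of each group stood apart, counts of changed genes are given below also without untreated A and without L-asparaginase C.

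With L-asparaginase 1954 genes rose and 1996 fell at a Benjamini-Hochberg adjusted p under 0.05 in edgeR's quasi-likelihood test, which is 12.9% and 13.2% of the genes tested and 26.1% together. Of these, 671 rose and 628 fell by at least 2-fold. The groups did not overlap, with all 3 treated libraries above or all 3 below the untreated ones, for 3285 genes that were higher (21.7%) and 3406 that were lower (22.5%). Over the whole set the median log2 fold change was -0.03. In bulk RNA, fewer cells in a state and less RNA per cell cannot be told apart. The number of calls depended on which libraries were used. Without untreated A, 3365 of 15621 tested genes rose and 2963 fell. Of the 3950 genes called with all libraries, 3863 were called there with the same sign. Leaving out L-asparaginase C gave 1117 and 1063 of 15793 tested genes. Without L-asparaginase B the counts were 896 and 820, and without untreated C 1269 and 1257. Leaving out both untreated A and L-asparaginase C gave 3252 and 2809 genes. Counts within the gene lists below are to be read against the totals of the same fit. For the fit with all libraries these are 12.9% higher and 13.2% lower. Fold changes of SUPB15 given below were refitted in 13 alternative ways, 6 of them without 1 library (12 ways for FOSB, which was filtered out in 1 of them), and a call that was lost in any of them is marked. The CPM values below are counts scaled to library sizes adjusted by TMM (trimmed mean of M-values), and in every triple the libraries stand in the order A, B, C. They are not divided by transcript length, so they compare libraries, not genes.

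**Figure D1:**
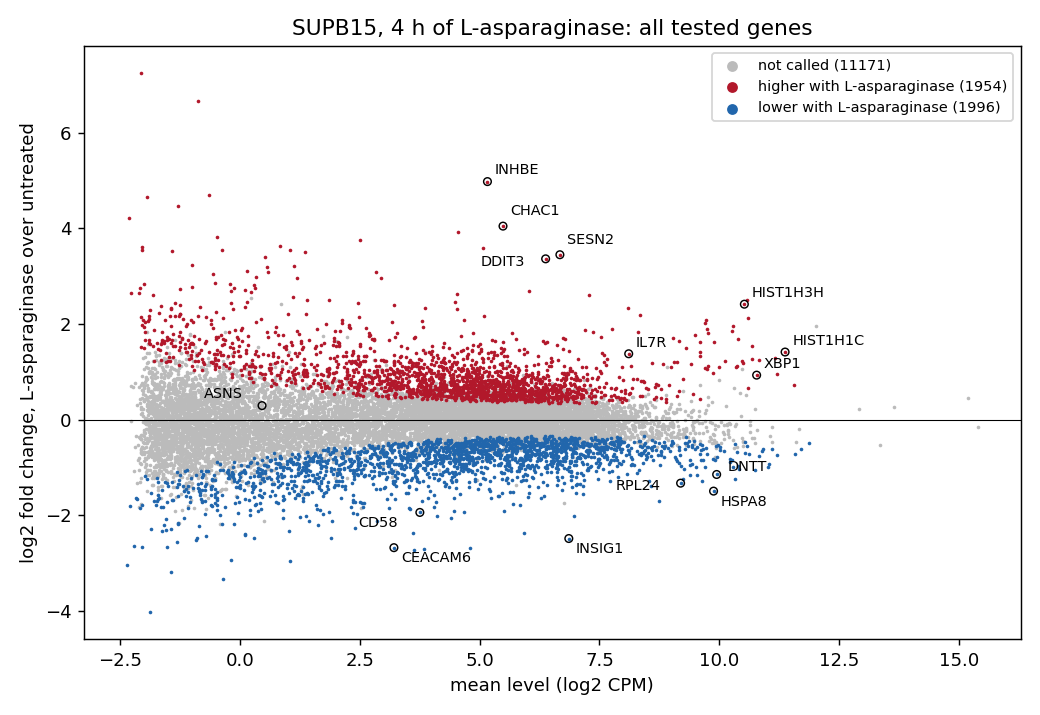
Mean level (log2 CPM, horizontal axis) and log2 fold change of L-asparaginase over untreated (vertical axis) for the 15121 tested genes of SUPB15, with genes that rose in red, genes that fell in blue and others in grey; circles mark 15 named genes. INHBE and CHAC1 lie highest among the marked genes, histone genes rose at high levels, and ASNS lies near 0 at a low level.

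The integrated stress response had the highest median of 35 gene lists. Of its 23 tested genes 16 rose and 3 fell, with a median log2 fold change of 1.34 against -0.03 over all genes. Without untreated A they were 17 and 3, and without L-asparaginase C 14 and 1. The 3 that fell were sensor kinases. EIF2AK4, the amino acid sensor GCN2, had 81.1, 74.9 and 74.7 CPM with L-asparaginase, against 131, 115 and 118 CPM in untreated cells (log2 fold change -0.66 ± 0.11 (SE), adjusted p = 0.00417). EIF2AK2, the sensor of double-stranded RNA, had 76.3, 71.5 and 72.1 CPM with L-asparaginase, against 176, 103 and 99.5 CPM in untreated cells (-0.78 ± 0.21, adjusted p = 0.0255, call lost in 3 of 13 alternative fits with adjusted p up to 0.093). EIF2AK1, the haem sensor, fell less (-0.52 ± 0.15, adjusted p = 0.0335, call lost in 3 of 13 alternative fits with adjusted p up to 0.123). The remaining sensor, EIF2AK3 or PERK, which reads endoplasmic reticulum stress, went the other way with 117, 126 and 128 CPM with L-asparaginase, against 82.2, 70.9 and 72.5 CPM in untreated cells (log2 fold change 0.72 ± 0.12 (SE), adjusted p = 0.00325). The transcript of ATF4 itself, whose control lies mainly in translation, had 474, 577 and 582 CPM with L-asparaginase, against 423, 399.9 and 393 CPM in untreated cells (log2 fold change 0.43 ± 0.13 (SE), adjusted p = 0.0429, call lost in 6 of 13 alternative fits with adjusted p up to 0.184). Its treated libraries all lay above the untreated ones, and with the letter as a block the adjusted p was 0.0592.

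Among the transcription factors downstream of ATF4, DDIT3 (CHOP), a driver of stress-induced death, had 127, 154 and 173 CPM with L-asparaginase, against 14.0, 14.4 and 15.8 CPM in untreated cells (log2 fold change 3.36 ± 0.15 (SE), adjusted p = 2.99e-05). ATF3, a stress-induced repressor, had 33.9, 40.4 and 44.7 CPM with L-asparaginase, against 3.90, 5.33 and 9.76 CPM in untreated cells (log2 fold change 2.64 ± 0.31 (SE), adjusted p = 0.0009). CEBPB, a partner of ATF4 on DNA, had 29.2, 39.5 and 44.9 CPM with L-asparaginase, against 3.62, 5.503 and 11.5 CPM in untreated cells (log2 fold change 2.45 ± 0.38 (SE), adjusted p = 0.00256). In all 3 genes the lowest treated library was above the highest untreated one, and the untreated values of ATF3 and CEBPB were lowest in A and highest in C. JDP2 also rose (1.44 ± 0.17), and so did CEBPG by a smaller margin (0.50 ± 0.13, adjusted p = 0.0226, call lost in 4 of 13 alternative fits with adjusted p up to 0.111). Of the targets, TRIB3, a pseudokinase that feeds back on ATF4, had 231, 268 and 304 CPM with L-asparaginase, against 25.7, 48.5 and 56.7 CPM in untreated cells (log2 fold change 2.61 ± 0.27 (SE), adjusted p = 0.000587). CHAC1, which degrades glutathione, had 84.3, 87.8 and 82.1 CPM with L-asparaginase, against 2.59, 5.37 and 7.23 CPM in untreated cells (log2 fold change 4.05 ± 0.32 (SE), adjusted p = 0.000266). SESN2, which holds back mTORC1 when leucine is low, had 186, 197 and 179 CPM with L-asparaginase, against 8.54, 16.3 and 26.3 CPM in untreated cells (log2 fold change 3.45 ± 0.35 (SE), adjusted p = 0.000538), and DDIT4, another mTORC1 inhibitor, had 434, 581 and 589 CPM with L-asparaginase, against 60.1, 136 and 155 CPM in untreated cells (log2 fold change 2.19 ± 0.32 (SE), adjusted p = 0.00207). In CHAC1, SESN2 and DDIT4 untreated A was again the lowest and untreated C the highest, and every treated library lay above them. The secreted factors INHBE (4.98 ± 0.32), STC2 (2.34 ± 0.16) and VEGFA (1.70 ± 0.24) rose without overlap, as did the lipoprotein receptor VLDLR (1.34 ± 0.22). PPP1R15A (GADD34), the phosphatase subunit that reverses eIF2 phosphorylation, rose by 0.81 ± 0.16.

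ATF4 and its partners bind a composite element whose core reads TGATGNAA. Promoters from RefSeq (GRCh38.p14, 250 bases before to 50 after each start) matched 9445 of the 15121 tested genes by symbol. The core was found on either strand in the promoters of 261 of these (2.76%), of 23 of the 409 matched genes that rose at least 2-fold (5.62%) and of 9 of the 321 that fell at least 2-fold (2.80%). Of all 27305 genes in the promoter set 4.46% held it. The 23 included CHAC1, ATF3, HERPUD1, JDP2, SLC3A2, SLC7A1 and IL7R. The sequences of 6 of them are shown because these genes recur in the results below. Capitals mark the 8 letters of the core as they read on the gene's strand, which in CHAC1, HERPUD1 and SLC3A2 is the reverse complement. The CHAC1 sequence is the whole 250 bases upstream of its start, those of ATF3, HERPUD1 and IL7R begin and end near the core, and in SLC3A2 and SLC7A1 the core lies just after the start and only 30 bases are given.
CHAC1, chr15:40953221-40953470, plus strand: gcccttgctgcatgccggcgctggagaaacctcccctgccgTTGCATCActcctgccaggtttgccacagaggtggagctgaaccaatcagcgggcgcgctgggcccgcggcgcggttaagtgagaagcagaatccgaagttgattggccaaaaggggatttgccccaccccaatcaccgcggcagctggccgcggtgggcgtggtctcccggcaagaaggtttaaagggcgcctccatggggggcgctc
ATF3, chr1:212565176-212565263, plus strand: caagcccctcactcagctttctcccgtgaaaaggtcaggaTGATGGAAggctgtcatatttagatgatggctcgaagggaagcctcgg
HERPUD1, chr16:56931926-56932013, plus strand: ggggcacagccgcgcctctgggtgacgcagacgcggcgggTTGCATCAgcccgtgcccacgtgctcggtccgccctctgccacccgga
IL7R, chr5:35856641-35856722, plus strand: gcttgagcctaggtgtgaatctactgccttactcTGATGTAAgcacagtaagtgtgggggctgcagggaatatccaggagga
SLC3A2, chr11:62881719-62881748, plus strand: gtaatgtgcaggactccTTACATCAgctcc
SLC7A1, chr13:29595663-29595692, minus strand: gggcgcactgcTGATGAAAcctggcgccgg
A match is a description of these letters and not evidence that the site is used. The first base of the core lies 209 bases before the start in CHAC1, 191 in ATF3, 176 in HERPUD1 and 216 in IL7R. The sterol response element TCACNCCAC occurred in the promoters of 1.43% of matched tested genes, in 5 of the 409 that rose and in 9 of the 321 that fell, and the CCAAT box (ATTGGN) in 43.7%, 183 and 148.

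Asparagine synthetase, the enzyme that restores asparagine inside the cell, did not pass the test. ASNS had 1.81, 1.26 and 1.42 CPM with L-asparaginase, against 1.05, 1.51 and 1.06 CPM in untreated cells (log2 fold change 0.29 ± 0.27, adjusted p = 0.467). Its groups overlapped.

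Part of the genes that bring amino acids into the cell rose. Of 18 tested transporters 8 rose and 0 fell (median 0.45). Leaving out untreated A gave 10 higher and 1 lower, and leaving out L-asparaginase C gave 6 and 0. SLC6A9, a glycine transporter, had 40.3, 39.0 and 35.6 CPM with L-asparaginase, against 6.95, 7.32 and 8.90 CPM in untreated cells (log2 fold change 2.31 ± 0.15 (SE), adjusted p = 0.000125). SLC7A11, the cystine-glutamate exchanger, had 262, 256 and 257 CPM with L-asparaginase, against 64.4, 69.3 and 84.8 CPM in untreated cells (log2 fold change 1.82 ± 0.13 (SE), adjusted p = 0.000206). SLC38A2, a sodium-coupled carrier of small neutral amino acids that takes up glutamine and asparagine among others, had 763, 788 and 776 CPM with L-asparaginase, against 290.1, 317 and 408 CPM in untreated cells (log2 fold change 1.20 ± 0.15 (SE), adjusted p = 0.00142). For these 3 carriers the treated libraries lay within a narrow band, all above the untreated ones. SLC7A1, which carries arginine and lysine, had 319, 259.9 and 224 CPM with L-asparaginase, against 125, 118 and 106 CPM in untreated cells (log2 fold change 1.20 ± 0.15 (SE), adjusted p = 0.00135). SLC3A2 (CD98), the heavy chain shared by several exchangers, had 626, 770.3 and 702 CPM with L-asparaginase, against 195, 389 and 389 CPM in untreated cells (log2 fold change 1.11 ± 0.25 (SE), adjusted p = 0.0127, call lost without L-asparaginase B at an adjusted p of 0.0521). SLC1A4 (0.94 ± 0.14) and the glutamine carrier SLC1A5 (0.88 ± 0.22, adjusted p = 0.0191, call lost in 3 of 13 alternative fits with adjusted p up to 0.0739) also rose. SLC7A5 (LAT1), the light chain for leucine, was not called at 717, 764 and 695 CPM with L-asparaginase, against 709, 1048 and 906 CPM in untreated cells (adjusted p = 0.225), with overlap between the groups. Without untreated A it was lower at an adjusted p of 0.019.

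Of 27 enzymes that make amino acids or carry one-carbon units 9 rose and 2 fell (median 0.31). The counts became 14 higher and 4 lower without untreated A, and 9 and 0 without L-asparaginase C. GPT2, which makes alanine in mitochondria, had 316, 358 and 359 CPM with L-asparaginase, against 80.0, 102 and 93.9 CPM in untreated cells (log2 fold change 1.90 ± 0.14 (SE), adjusted p = 0.000169). PCK2, the mitochondrial PEP carboxykinase, had 118, 131 and 135 CPM with L-asparaginase, against 27.5, 48.8 and 49.0 CPM in untreated cells (log2 fold change 1.61 ± 0.21 (SE), adjusted p = 0.00153). Both were without overlap. In the serine branch PSPH (1.25 ± 0.21) and PSAT1 (1.01 ± 0.22) rose, and PHGDH, which makes the committed step, had 171, 197 and 205 CPM with L-asparaginase, against 113, 168 and 158 CPM in untreated cells and did not pass the test (adjusted p = 0.115), with no overlap between its groups. It passed with the letter as a block (adjusted p = 0.0492) and without untreated A (adjusted p = 0.0444). The mitochondrial folate enzyme MTHFD2 had 772, 952 and 1092 CPM with L-asparaginase, against 330.3, 433 and 492 CPM in untreated cells (log2 fold change 1.16 ± 0.19 (SE), adjusted p = 0.00342), and MTHFD1L (0.96 ± 0.13) and SHMT2 (0.74 ± 0.15) rose with it. GOT1, which makes aspartate, rose by 0.94 ± 0.17. Both falls were small, GLUL (glutamine synthetase) at -0.41 ± 0.11, adjusted p = 0.0209, call lost in 6 of 13 alternative fits with adjusted p up to 0.0908, and the branched-chain aminotransferase BCAT2 at -0.76 ± 0.20, adjusted p = 0.0237, call lost in 5 of 13 alternative fits with adjusted p up to 0.106.

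Of 20 synthetases that load cytosolic tRNAs 9 rose and 2 fell (median 0.29). With untreated A left out 12 rose and 2 fell, and with L-asparaginase C left out 3 and 0. With the letter as a block, 6 rose and 1 fell. CARS had 212, 253 and 273 CPM with L-asparaginase, against 111, 136 and 129 CPM in untreated cells (log2 fold change 0.98 ± 0.14 (SE), adjusted p = 0.00199). WARS had 139, 157 and 169 CPM with L-asparaginase, against 97.7, 87.0 and 70.2 CPM in untreated cells (log2 fold change 0.86 ± 0.15 (SE), adjusted p = 0.0042), and MARS rose by 0.65 ± 0.14, adjusted p = 0.00895, call lost without L-asparaginase B at an adjusted p of 0.050002. These 3 were the rises that remained without L-asparaginase C. Of 17 mitochondrial synthetases 4 rose and 4 fell, with WARS2 (0.72 ± 0.15) among the rises. If untreated A was omitted the counts were 5 and 4, and if L-asparaginase C was omitted 1 and 1.

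**Figure D2:**
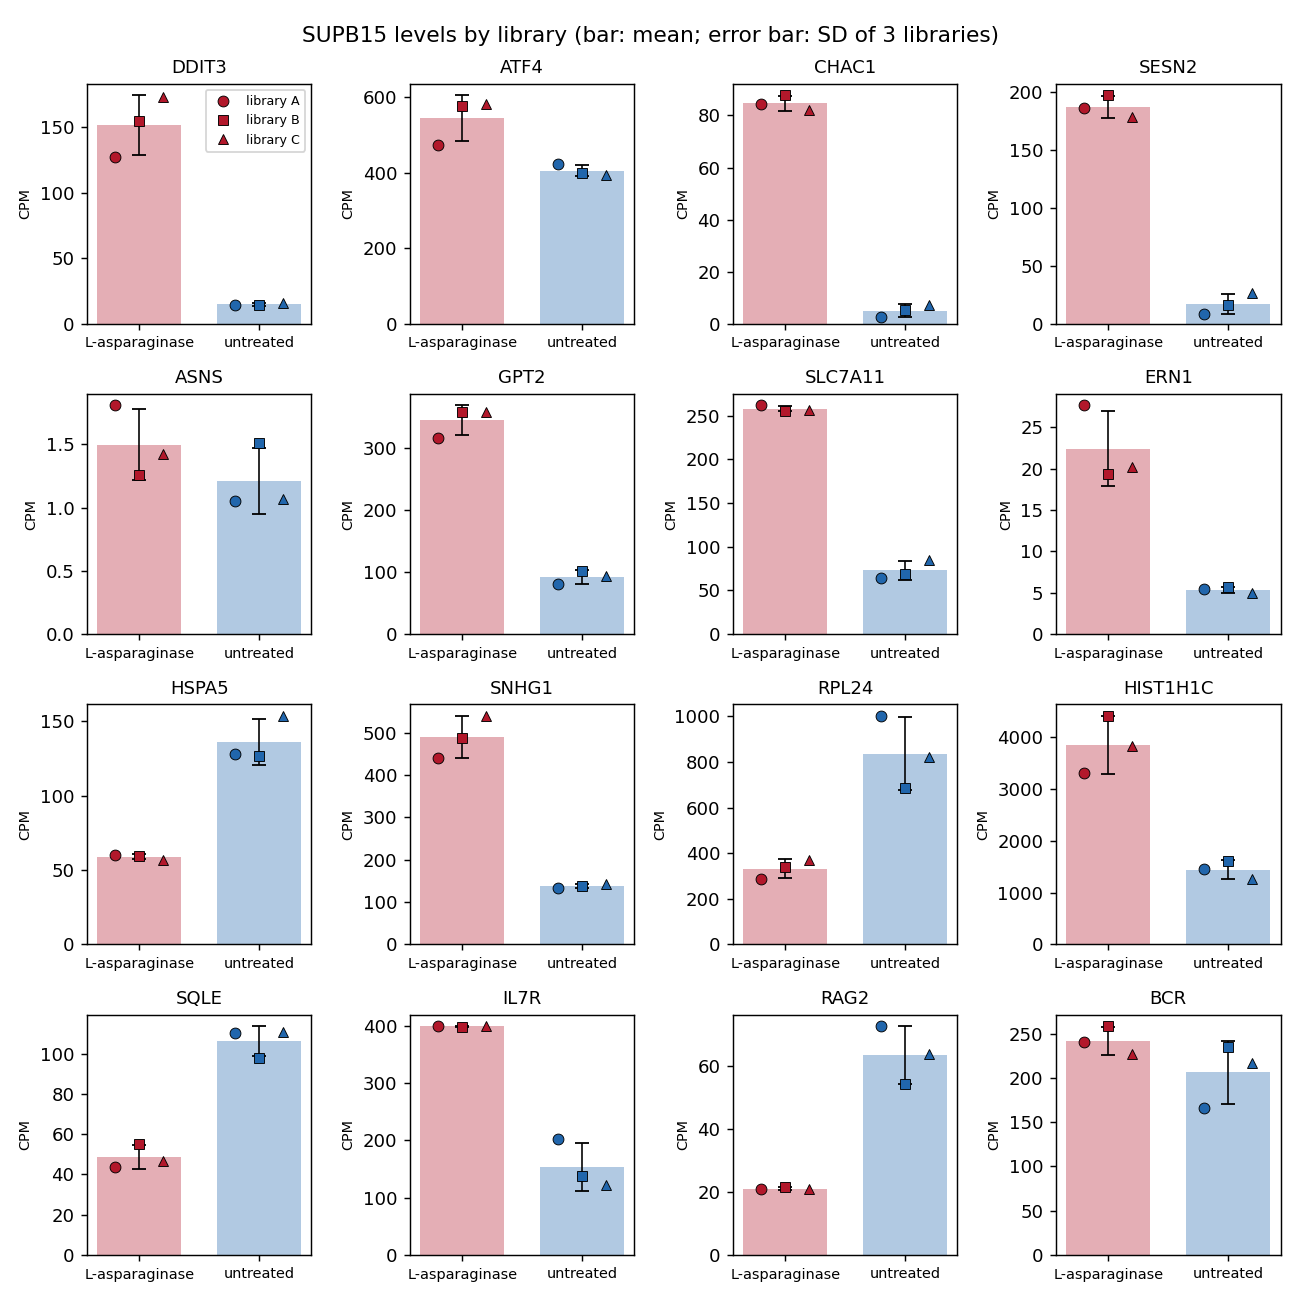
Level (CPM, vertical axes starting at 0) of 16 genes in the 3 L-asparaginase libraries (red, left) and the 3 untreated libraries (blue, right) of SUPB15, with symbols for libraries A, B and C, bars for the mean and error bars for the SD of 3 libraries. DDIT3 averaged 152 CPM with L-asparaginase and 14.7 CPM in untreated cells without overlap, while the groups of ASNS and BCR overlapped.

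Transcripts of the translation machinery split. Of 79 ribosomal protein genes 0 rose and 37 fell, with a median log2 fold change of -0.49. Without untreated A 72 fell, without L-asparaginase C 29, without both 78, and with the letter as a block 44. RPL24 had 288, 338 and 371 CPM with L-asparaginase, against 1003, 684 and 823 CPM in untreated cells (log2 fold change -1.33 ± 0.18 (SE), adjusted p = 0.00151). RPS25 had 404, 463 and 509.8 CPM with L-asparaginase, against 1026, 943 and 1119 CPM in untreated cells (log2 fold change -1.17 ± 0.15 (SE), adjusted p = 0.00124). RPL7A had 836, 919 and 931 CPM with L-asparaginase, against 1458, 1975 and 2069.8 CPM in untreated cells (log2 fold change -1.03 ± 0.17 (SE), adjusted p = 0.00344). All 3 fell without overlap, but untreated A lay on different sides, above B and C for RPL24 and below them for RPL7A. In RPL11, where untreated A stood far above the others, the levels were 696, 851 and 963 CPM with L-asparaginase, against 2339, 1208 and 1431 CPM in untreated cells (-0.99 ± 0.25, adjusted p = 0.0206, call lost in 2 of 13 alternative fits with adjusted p up to 0.0838). Genes of this family have many processed pseudogenes, and how the counting treated reads shared with them is not given, so single values are uncertain.

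Of 40 translation factors 3 rose and 9 fell (median -0.09). These counts were 7 and 11 without untreated A, and 2 and 7 without L-asparaginase C. EIF4B, a helicase cofactor whose transcript, like those of ribosomal proteins, begins with a pyrimidine tract, had 524, 578 and 566 CPM with L-asparaginase, against 1359.7, 969 and 1014 CPM in untreated cells (log2 fold change -1.002 ± 0.16 (SE), adjusted p = 0.00332). EIF3D (-0.72 ± 0.14) and EIF3E (-0.72 ± 0.16, adjusted p = 0.0111, call lost without L-asparaginase B at an adjusted p of 0.0567), subunits of eIF3, fell as well. Both EIF4EBP1, which inhibits cap-dependent translation and is a target of ATF4, and EIF1, which sets start-codon choice, rose. EIF4EBP1 had 118, 146 and 148 CPM with L-asparaginase, against 75.7, 85.0 and 90.2 CPM in untreated cells (0.72 ± 0.13, adjusted p = 0.00565), and EIF1 had 180.3, 156 and 163 CPM with L-asparaginase, against 72.3, 94.6 and 112 CPM in untreated cells (0.84 ± 0.17, adjusted p = 0.00722). EIF4EBP2, an inhibitor related to EIF4EBP1, fell (-0.69 ± 0.13, adjusted p = 0.00623).

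The host genes of small nucleolar RNAs (snoRNAs) also begin with a pyrimidine tract, but most of their transcripts are spliced, poorly translated and decayed in a translation-dependent way. Of 12 tested 6 rose and 0 fell (median 0.55). Without untreated A they were 7 and 1, and without L-asparaginase C 5 and 0. SNHG1 had 441, 488 and 540.1 CPM with L-asparaginase, against 133, 139 and 143 CPM in untreated cells (log2 fold change 1.82 ± 0.13 (SE), adjusted p = 0.000169). ZFAS1 had 214, 260.1 and 348 CPM with L-asparaginase, against 107, 123 and 141 CPM in untreated cells (log2 fold change 1.15 ± 0.19 (SE), adjusted p = 0.00348). GAS5 had 389, 392 and 513 CPM with L-asparaginase, against 232, 254 and 258 CPM in untreated cells (log2 fold change 0.80 ± 0.15 (SE), adjusted p = 0.0051). In each, all 3 treated libraries were above all untreated ones, and C was the highest. SNHG15 (1.30 ± 0.23) and SNHG12 (1.03 ± 0.14) rose too. Of 35 ribosome biogenesis genes 11 rose and 1 fell (median 0.27). Leaving out untreated A gave 19 higher and 1 lower, and leaving out L-asparaginase C gave 6 and 0. UTP20 had 125, 127 and 127 CPM with L-asparaginase, against 91.6, 59.2 and 58.7 CPM in untreated cells (log2 fold change 0.86 ± 0.18 (SE), adjusted p = 0.00891), BOP1 rose by 0.83 ± 0.16, RRP12 by 0.73 ± 0.12 and the RNA polymerase I subunit POLR1B by 0.69 ± 0.12. MYC, an activator of these genes, was not called at 183, 203 and 188 CPM with L-asparaginase, against 212, 199 and 201 CPM in untreated cells (adjusted p = 0.582), with overlap.

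**Figure D3:**
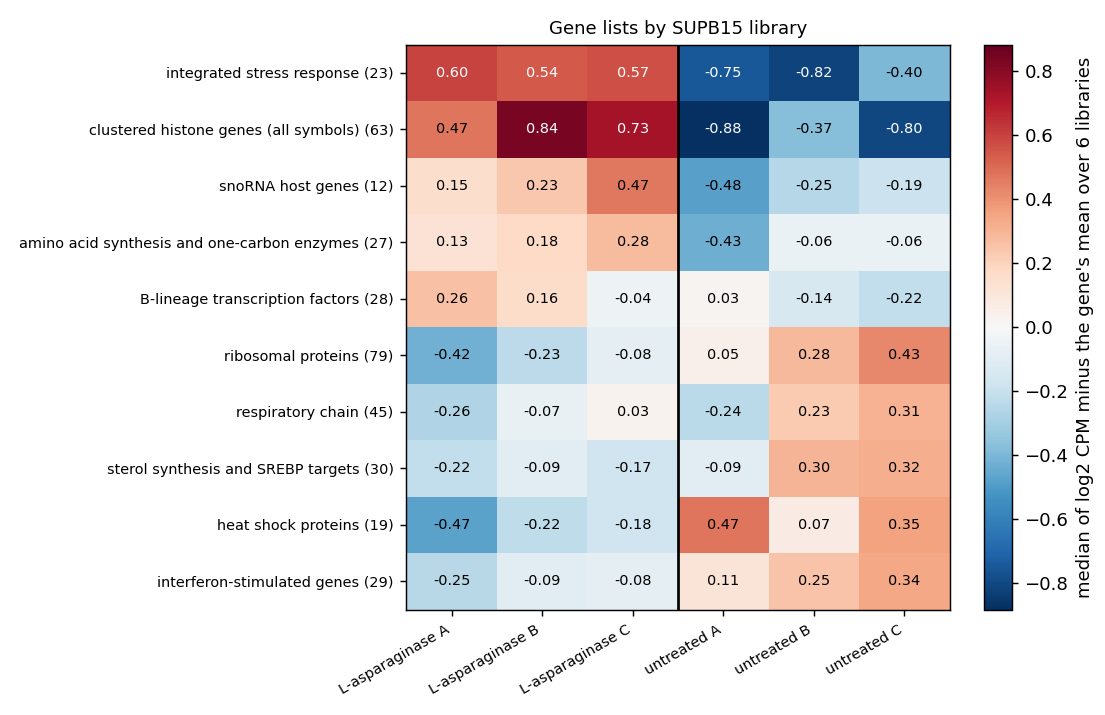
For 10 gene lists (rows, number of tested genes in brackets) and the 6 SUPB15 libraries (columns), the median over genes of log2(CPM + 0.1) minus the gene's mean over the 6 libraries, in red where above and blue where below that mean. L-asparaginase A and untreated A lay close together for the respiratory chain (-0.26 and -0.24), and L-asparaginase B and untreated A for sterol synthesis (both -0.09). Untreated A lay near the middle for ribosomal proteins (0.05). For B-lineage factors L-asparaginase C (-0.04) lay below untreated A (0.03). The stress and histone lists separated the groups in all libraries.

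Many protein folding genes fell. Of 19 heat shock genes, which encode cytosolic and mitochondrial chaperones, 1 rose and 11 fell (median -0.62). The counts became 3 higher and 11 lower without untreated A, and 0 and 7 without L-asparaginase C. HSPA8, the constitutive HSP70, had 411, 522 and 543 CPM with L-asparaginase, against 1399, 1061 and 1709.6 CPM in untreated cells (log2 fold change -1.498 ± 0.20 (SE), adjusted p = 0.00162). HSP90AA1 had 444, 456 and 461 CPM with L-asparaginase, against 1069, 671 and 889.7 CPM in untreated cells (log2 fold change -0.95 ± 0.18 (SE), adjusted p = 0.00563), and HSP90AB1 fell by 0.84 on the log2 scale. The inducible HSPA1A had 1.02, 1.25 and 1.03 CPM with L-asparaginase, against 7.12, 3.28 and 8.26 CPM in untreated cells (log2 fold change -2.49 ± 0.35 (SE), adjusted p = 0.00181). For HSPA8 the lowest untreated library was still above the highest treated one, although untreated B lay below A and C. The co-chaperone AHSA1 fell as well (-1.09 ± 0.16, adjusted p = 0.00228).

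In the endoplasmic reticulum 4 of 21 tested genes rose and 8 fell (median -0.22). With untreated A left out 4 rose and 9 fell, and with L-asparaginase C left out 3 and 5. The rises were not chaperones. ERN1 (IRE1), the sensor that splices XBP1 mRNA, had 27.6, 19.4 and 20.3 CPM with L-asparaginase, against 5.495, 5.66 and 4.92 CPM in untreated cells (log2 fold change 2.06 ± 0.18 (SE), adjusted p = 0.00032). HERPUD1, a part of the degradation machinery and a known ATF4 target, had 77.2, 82.2 and 88.8 CPM with L-asparaginase, against 20.8, 26.1 and 43.2 CPM in untreated cells (log2 fold change 1.46 ± 0.24 (SE), adjusted p = 0.00355). XBP1 had 1659, 2438 and 2803 CPM with L-asparaginase, against 839, 1310.3 and 1474 CPM in untreated cells (log2 fold change 0.93 ± 0.26 (SE), adjusted p = 0.0282, call lost in 3 of 13 alternative fits with adjusted p up to 0.105). The falls were chaperones, disulfide isomerases and related secretory genes, usual targets of ATF6 and spliced XBP1. HSPA5 (BiP) had 60.3, 59.6 and 57.1 CPM with L-asparaginase, against 128, 126 and 154 CPM in untreated cells (log2 fold change -1.21 ± 0.12 (SE), adjusted p = 0.000565). HSP90B1 (GRP94) had 369, 431 and 408 CPM with L-asparaginase, against 971, 718 and 789 CPM in untreated cells (log2 fold change -1.04 ± 0.15 (SE), adjusted p = 0.00222), and SDF2L1 (-1.01 ± 0.21) fell with them. Within the same libraries the sensor and degradation genes were higher and BiP and GRP94 lower, each without overlap.

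Lipid and energy metabolism fell in part. Of 30 genes of sterol synthesis and other targets of the SREBP factors 0 rose and 11 fell (median -0.35). If untreated A was omitted the counts were 1 and 18, and if L-asparaginase C was omitted 0 and 7. INSIG1, which retains SREBP and is itself its target, had 29.2, 37.96 and 38.1 CPM with L-asparaginase, against 134, 216 and 242 CPM in untreated cells (log2 fold change -2.49 ± 0.23 (SE), adjusted p = 0.000357). SQLE, squalene epoxidase, had 43.7, 55.0 and 46.6 CPM with L-asparaginase, against 110.3, 97.5 and 110.5 CPM in untreated cells (log2 fold change -1.13 ± 0.13 (SE), adjusted p = 0.0009). Untreated A was the lowest untreated library for INSIG1, yet above every treated one. IDI1 (-1.06 ± 0.14) and HMGCS1 (-0.91 ± 0.13), enzymes early in sterol synthesis, fell likewise.

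Of 25 glycolysis genes 1 rose and 11 fell (median -0.35). These counts were 2 and 13 without untreated A, and 1 and 5 without L-asparaginase C. PFKM, the muscle form of phosphofructokinase, had 27.4, 25.5 and 26.4 CPM with L-asparaginase, against 55.3, 63.7 and 67.5 CPM in untreated cells (log2 fold change -1.24 ± 0.13 (SE), adjusted p = 0.000545), and PFKP, the platelet form, fell by 1.01 on the log2 scale. PDK3, which shuts pyruvate dehydrogenase, had 2.26, 2.27 and 2.03 CPM with L-asparaginase, against 7.23, 8.72 and 7.26 CPM in untreated cells (log2 fold change -1.82 ± 0.18 (SE), adjusted p = 0.000472). The exception was the glucose carrier SLC2A3 (GLUT3), with 60.1, 57.1 and 63.4 CPM with L-asparaginase, against 29.6, 29.9 and 38.5 CPM in untreated cells (log2 fold change 0.88 ± 0.14 (SE), adjusted p = 0.00297), while SLC2A1 (GLUT1) fell (-0.67 ± 0.20, adjusted p = 0.0369, call lost in 5 of 13 alternative fits with adjusted p up to 0.13). Of 15 HIF targets 2 rose, VEGFA and DDIT4, which are also stress genes, and 5 fell. Without untreated A they were 2 and 5, and without L-asparaginase C 2 and 3. Of 45 respiratory chain genes 4 fell (8.89%, below the 13.2% of all tested genes). The count was 24 without untreated A, 3 without L-asparaginase C, 29 without both and 11 with the letter as a block. NDUFB3, of complex I, had 31.7, 37.6 and 41.5 CPM with L-asparaginase, against 86.8, 69.8 and 70.9 CPM in untreated cells (log2 fold change -1.04 ± 0.15 (SE), adjusted p = 0.00199). Of 31 proteasome genes 3 fell (9.68%, also below 13.2%), among them PSMB2 (-0.81 ± 0.11). In this list 1 rose and 6 fell without untreated A, and 0 and 1 without L-asparaginase C.

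Histone genes rose together. Of 19 listed genes 17 rose and 0 fell (median 1.24). Leaving out untreated A gave 17 higher and 0 lower, and leaving out L-asparaginase C gave 16 and 0. HIST1H1C, a linker histone, had 3301, 4407 and 3831 CPM with L-asparaginase, against 1457, 1616 and 1261 CPM in untreated cells (log2 fold change 1.41 ± 0.18 (SE), adjusted p = 0.00132). HIST1H2AC had 1705, 2115 and 1936 CPM with L-asparaginase, against 601, 623 and 359 CPM in untreated cells (log2 fold change 1.86 ± 0.22 (SE), adjusted p = 0.00104). HIST1H3H had 2199.8, 2689 and 2531 CPM with L-asparaginase, against 241, 694 and 457 CPM in untreated cells (log2 fold change 2.41 ± 0.34 (SE), adjusted p = 0.00181). All 3 were without overlap. Over all 63 tested genes of the histone clusters, a set widened after the values of the list were seen, 53 rose and 1 fell, 60 rose without untreated A, 45 without L-asparaginase C and 56 with the letter as a block. The median was 1.27, and it lay between 1.17 and 1.497 in the families H1, H2A, H2B, H3 and H4. Most mRNAs of these clusters carry no poly(A) tail, and near-identical copies share reads, so single values are uncertain. Whether the libraries selected poly(A) RNA is not given in the sources used here.

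Of 32 DNA replication genes 4 rose and 3 fell (median 0.14), near the shares over all tested genes (12.9% and 13.2%). The counts became 10 higher and 4 lower without untreated A, and 2 and 0 without L-asparaginase C. E2F2, an S-phase transcription factor, had 332, 353 and 296 CPM with L-asparaginase, against 145, 222 and 185 CPM in untreated cells (log2 fold change 0.83 ± 0.17 (SE), adjusted p = 0.00792), and PCNA, the replication clamp, had 353, 419 and 402 CPM with L-asparaginase, against 499, 649 and 619 CPM in untreated cells (-0.59 ± 0.15, adjusted p = 0.0187, call lost in 5 of 13 alternative fits with adjusted p up to 0.0698). Of 25 mitosis genes 1 rose and 5 fell (4% and 20%). With untreated A left out 3 rose and 7 fell, and with L-asparaginase C left out 0 and 2. PTTG1 (securin) had 67.2, 74.9 and 75.8 CPM with L-asparaginase, against 172, 162 and 164 CPM in untreated cells (log2 fold change -1.19 ± 0.11 (SE), adjusted p = 0.000423), and the spindle checkpoint kinase TTK fell by 0.76 on the log2 scale. Among 22 p53 targets 2 rose and 5 fell (9.09% and 22.7%). If untreated A was omitted the counts were 4 and 8, and if L-asparaginase C was omitted 1 and 2. ZMAT3, an RNA-binding p53 target, had 4.71, 3.21 and 3.98 CPM with L-asparaginase, against 20.5, 20.1 and 20.7 CPM in untreated cells (log2 fold change -2.38 ± 0.17 (SE), adjusted p = 0.000193), and GADD45A, which ATF4 also induces, had 27.9, 35.4 and 32.1 CPM with L-asparaginase, against 20.3, 14.96 and 17.6 CPM in untreated cells (log2 fold change 0.85 ± 0.16 (SE), adjusted p = 0.00544). Of 24 splicing genes 2 rose and 9 fell. These counts were 5 and 10 without untreated A, and 1 and 8 without L-asparaginase C. SRSF1 had 187, 228 and 209 CPM with L-asparaginase, against 618, 517 and 515 CPM in untreated cells (log2 fold change -1.40 ± 0.14 (SE), adjusted p = 0.000489), SRSF5 fell by 1.38 and HNRNPA1 by 1.05 on the log2 scale. The kinase CLK1, which phosphorylates such splicing factors, rose (0.93 ± 0.20, adjusted p = 0.0107).

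**Figure D4:**
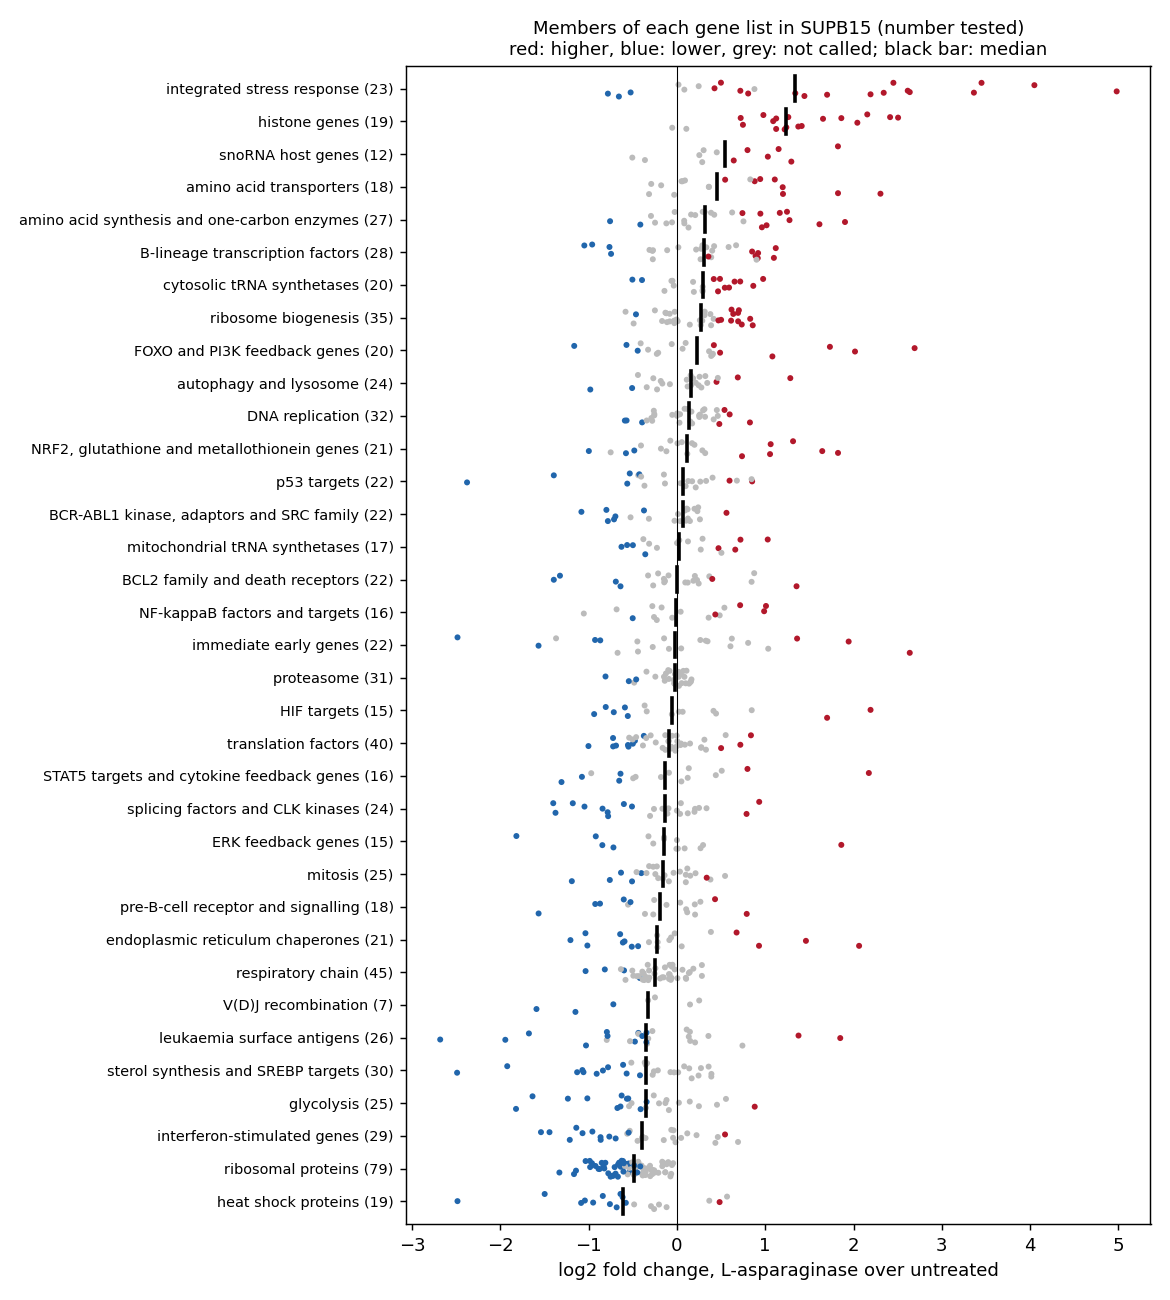
Log2 fold change of L-asparaginase over untreated (horizontal axis) for each tested member of 35 gene lists (rows, sorted by median, number of tested genes in brackets), with genes that rose in red, that fell in blue and others in grey, and the median as a black bar. The integrated stress response and histone lists have the highest medians (1.34 and 1.24), and ribosomal proteins and heat shock proteins the lowest (-0.49 and -0.62).

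The transcripts of the driver kinase were not called. BCR, whose promoter also drives the fusion, had 241, 259 and 227 CPM with L-asparaginase, against 166, 235 and 217 CPM in untreated cells (log2 fold change 0.23 ± 0.15, adjusted p = 0.288), and ABL1 had 167, 156 and 134 CPM with L-asparaginase, against 126, 159 and 144 CPM in untreated cells (adjusted p = 0.668). Both overlapped between groups, and gene counts do not separate the fusion from the normal alleles. Of 22 genes of the kinase, its adaptors and the SRC family 1 rose and 6 fell. Without untreated A they were 2 and 6, and without L-asparaginase C 1 and 5. INPP5D (SHIP1), a lipid phosphatase that counters PI3K, had 152, 138 and 129 CPM with L-asparaginase, against 275, 299 and 314 CPM in untreated cells (log2 fold change -1.08 ± 0.12 (SE), adjusted p = 0.000808). PTPN11 (SHP2), a phosphatase of the RAS path, had 249, 265 and 261 CPM with L-asparaginase, against 448, 398 and 410.4 CPM in untreated cells (log2 fold change -0.70 ± 0.12 (SE), adjusted p = 0.00365). JAK1 had 151, 152 and 144 CPM with L-asparaginase, against 284, 244 and 242 CPM in untreated cells (log2 fold change -0.78 ± 0.12 (SE), adjusted p = 0.00232), and STAT5B (-0.71 ± 0.13) and SOS2 (-0.80 ± 0.14) fell as well. GAB1, an adaptor, was the 1 that rose (0.56 ± 0.15, adjusted p = 0.0271, call lost in 4 of 13 alternative fits with adjusted p up to 0.0992).

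Among 16 targets of STAT5 and cytokine feedback genes 2 rose and 4 fell (12.5% and 25%, against 12.9% and 13.2% over all tested genes). Leaving out untreated A gave 3 higher and 7 lower, and leaving out L-asparaginase C gave 1 and 3. SOCS2 had 353, 440.5 and 460.1 CPM with L-asparaginase, against 221, 239 and 261 CPM in untreated cells (log2 fold change 0.80 ± 0.14 (SE), adjusted p = 0.00479), and CISH, another STAT5 target, was not called (log2 fold change 0.51 ± 0.20, adjusted p = 0.0873, and 0.0471 without untreated A). PIM2, a survival kinase, had 5.31, 6.44 and 5.85 CPM with L-asparaginase, against 9.79, 13.0 and 14.4 CPM in untreated cells (log2 fold change -1.08 ± 0.18 (SE), adjusted p = 0.00405), and BCL2L1 (BCL-XL) had 22.6, 23.4 and 23.2 CPM with L-asparaginase, against 30.4, 38.6 and 38.8 CPM in untreated cells (log2 fold change -0.64 ± 0.14 (SE), adjusted p = 0.00973, call lost without L-asparaginase B at an adjusted p of 0.0583). The share of rises in this list was near that over all tested genes. Of 15 ERK feedback genes 1 rose and 4 fell (6.67% and 26.7%). The counts became 2 higher and 4 lower without untreated A, and 1 and 2 without L-asparaginase C. ETV5 fell (-0.85 ± 0.13, adjusted p = 0.00266), and PHLDA1 had 3.54, 3.70 and 3.35 CPM with L-asparaginase, against 0.826, 1.13 and 0.943 CPM in untreated cells (log2 fold change 1.86 ± 0.22 (SE), adjusted p = 0.000974). Of 22 immediate early genes 3 rose and 4 fell (13.6% and 18.2%). With untreated A left out 4 rose and 6 fell, and with L-asparaginase C left out 3 and 1. JUN had 6.82, 8.69 and 7.43 CPM with L-asparaginase, against 2.25, 1.89 and 1.85 CPM in untreated cells (log2 fold change 1.94 ± 0.19 (SE), adjusted p = 0.000471) and KLF6 had 53.8, 58.4 and 57.5 CPM with L-asparaginase, against 22.8, 20.4 and 22.9 CPM in untreated cells (log2 fold change 1.36 ± 0.12 (SE), adjusted p = 0.00032), whereas FOSB fell at levels of 0.244 to 0.527 CPM with L-asparaginase and 0.968 to 2.67 CPM in untreated cells (-2.49 ± 0.46, adjusted p = 0.00538).

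Of 20 FOXO and PI3K feedback genes 6 rose and 3 fell (median 0.23). If untreated A was omitted the counts were 8 and 3, and if L-asparaginase C was omitted 4 and 1. ARRDC3, an arrestin-like protein, had 98.5, 114 and 129 CPM with L-asparaginase, against 21.8, 15.8 and 15.3 CPM in untreated cells (log2 fold change 2.69 ± 0.18 (SE), adjusted p = 0.000147), and its relative TXNIP, an inhibitor of thioredoxin and glucose uptake, had 218, 302 and 331 CPM with L-asparaginase, against 59.1, 69.9 and 127 CPM in untreated cells (log2 fold change 1.73 ± 0.29 (SE), adjusted p = 0.00346). CITED2 rose by 1.08 ± 0.18, and FOXO4 fell by 1.16 on the log2 scale. In the BCL2 family and death receptors 2 of 22 rose and 4 fell (9.09% and 18.2%, against 12.9% and 13.2% over all tested genes). These counts were 3 and 6 without untreated A, and 1 and 2 without L-asparaginase C. PMAIP1 (NOXA), a BH3-type protein that neutralises MCL1 and a known ATF4 target, had 224, 298 and 306 CPM with L-asparaginase, against 98.6, 99.0 and 127 CPM in untreated cells (log2 fold change 1.35 ± 0.16 (SE), adjusted p = 0.00107). MCL1 itself had 216, 262 and 264 CPM with L-asparaginase, against 208, 240.3 and 234 CPM in untreated cells and BCL2 had 227, 265 and 234 CPM with L-asparaginase, against 254, 269.7 and 252 CPM in untreated cells, with adjusted p-values of 0.53 and 0.587, and both overlapped. BID, which links death receptors to mitochondria, fell (-0.69 ± 0.14, adjusted p = 0.00852, call lost without L-asparaginase B at an adjusted p of 0.0523).

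B-lineage genes changed in both directions. Of 28 B-lineage transcription factors 7 rose and 4 fell (median 0.31). Without untreated A they were 12 and 3, and without L-asparaginase C 6 and 2. PAX5, the factor that commits cells to the B lineage, had 417, 379.8 and 343 CPM with L-asparaginase, against 215, 208 and 209 CPM in untreated cells (log2 fold change 0.85 ± 0.12 (SE), adjusted p = 0.002). IKZF2 (Helios) had 446, 386 and 345 CPM with L-asparaginase, against 175, 144 and 222 CPM in untreated cells (log2 fold change 1.12 ± 0.18 (SE), adjusted p = 0.00305), ZEB2 rose by 1.10 ± 0.19 and IRF8 by 0.89 ± 0.16. LEF1, a WNT-pathway factor of early B cells, had 223, 208 and 192 CPM with L-asparaginase, against 589, 335 and 366 CPM in untreated cells (log2 fold change -1.05 ± 0.21 (SE), adjusted p = 0.00766), and SOX4, which supports survival of B-cell precursors, had 210.5, 205 and 183 CPM with L-asparaginase, against 350.1, 340.2 and 314 CPM in untreated cells (log2 fold change -0.75 ± 0.12 (SE), adjusted p = 0.00306). Of 18 genes of the pre-B-cell receptor and its signalling 2 rose and 5 fell (11.1% and 27.8%). Leaving out untreated A gave 2 higher and 8 lower, and leaving out L-asparaginase C gave 1 and 4. VPREB1, a part of the surrogate light chain, had 64.8, 73.3 and 78.7 CPM with L-asparaginase, against 94.2, 274 and 274 CPM in untreated cells (log2 fold change -1.57 ± 0.35 (SE), adjusted p = 0.0116, call lost without L-asparaginase A at an adjusted p of 0.0636), with untreated A far below B and C but above all treated libraries. The linker BLNK (-0.93 ± 0.18) and the kinase BTK (-0.87 ± 0.13) fell, and the SRC-family kinase BLK had 42.1, 44.2 and 42.8 CPM with L-asparaginase, against 22.3, 25.5 and 26.7 CPM in untreated cells (log2 fold change 0.79 ± 0.12 (SE), adjusted p = 0.00269). Of 7 recombination genes 3 fell, and 1 rose and 4 fell without untreated A, against 0 and 3 without L-asparaginase C. RAG2, a subunit of the recombinase, had 20.9, 21.4 and 20.8 CPM with L-asparaginase, against 72.5, 54.2 and 63.6 CPM in untreated cells (log2 fold change -1.59 ± 0.14 (SE), adjusted p = 0.00032), and DNTT (TdT), which adds bases at the joins, had 514, 641 and 679 CPM with L-asparaginase, against 1300.0, 1208 and 1562 CPM in untreated cells (log2 fold change -1.15 ± 0.17 (SE), adjusted p = 0.00211). RAG1, the partner of RAG2, had 423, 478 and 428 CPM with L-asparaginase, against 438, 561 and 666 CPM in untreated cells and was not called (adjusted p = 0.184, and 0.0133 without untreated A).

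Of 26 leukaemia surface antigens 2 rose and 11 fell (median -0.35). The counts became 3 higher and 15 lower without untreated A, and 2 and 5 without L-asparaginase C. IL7R, the receptor of a growth factor for B-cell precursors, had 399, 398 and 399 CPM with L-asparaginase, against 202, 138 and 121 CPM in untreated cells (log2 fold change 1.38 ± 0.19 (SE), adjusted p = 0.00165), with the treated libraries almost equal. CD69, an activation marker, had 5.88, 6.77 and 7.19 CPM with L-asparaginase, against 1.42, 1.75 and 2.29 CPM in untreated cells (log2 fold change 1.85 ± 0.22 (SE), adjusted p = 0.00104). CD58, an adhesion ligand for T cells, had 5.39, 5.79 and 5.43 CPM with L-asparaginase, against 23.1, 20.6 and 20.3 CPM in untreated cells (log2 fold change -1.94 ± 0.14 (SE), adjusted p = 0.000169). CEACAM6, an adhesion molecule found on BCR-ABL1 ALL, had 2.75, 2.19 and 2.56 CPM with L-asparaginase, against 16.5, 16.5 and 14.8 CPM in untreated cells (log2 fold change -2.68 ± 0.16 (SE), adjusted p = 0.000125), CD40 fell by 1.68 and CD9 by 0.79 on the log2 scale. CD22, a target of antibody therapies, had 56.3, 45.6 and 46.4 CPM with L-asparaginase, against 62.4, 56.2 and 61.1 CPM in untreated cells and was not called (adjusted p = 0.143).

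Of 29 interferon-stimulated genes 1 rose and 11 fell (median -0.40). With untreated A left out 3 rose and 14 fell, and with L-asparaginase C left out 1 and 7. STAT2, a subunit of the interferon-activated factor, had 17.9, 16.5 and 16.3 CPM with L-asparaginase, against 38.6, 49.4 and 49.6 CPM in untreated cells (log2 fold change -1.44 ± 0.14 (SE), adjusted p = 0.000471). BST2 (tetherin) had 18.6, 24.4 and 24.3 CPM with L-asparaginase, against 39.1, 69.2 and 87.5 CPM in untreated cells (log2 fold change -1.54 ± 0.27 (SE), adjusted p = 0.00428), and OAS2 (-1.07 ± 0.14), IFIT3 (-1.21 ± 0.17) and IFITM2 (-0.96 ± 0.14) fell without overlap. Of 16 NF-kappaB factors and targets 4 rose and 1 fell. If untreated A was omitted the counts were 6 and 2, and if L-asparaginase C was omitted 2 and 0. TNFAIP3 (A20), which restrains the pathway, had 188, 182 and 171 CPM with L-asparaginase, against 104, 108 and 117 CPM in untreated cells (log2 fold change 0.72 ± 0.11 (SE), adjusted p = 0.0027). Among 24 autophagy and lysosome genes 3 rose and 2 fell (12.5% and 8.33%, against 12.9% and 13.2% over all tested genes). These counts were 7 and 4 without untreated A, and 1 and 1 without L-asparaginase C. TFEB, the lysosomal master regulator that mTORC1 holds in the cytosol, had 42.8, 49.3 and 48.5 CPM with L-asparaginase, against 14.0, 21.9 and 21.8 CPM in untreated cells (log2 fold change 1.28 ± 0.18 (SE), adjusted p = 0.00201), and the mitophagy receptor BNIP3L fell by 0.98 on the log2 scale. Of 21 NRF2, glutathione and metallothionein genes 6 rose and 3 fell. Without untreated A they were 8 and 4, and without L-asparaginase C 5 and 1. The zinc exporter SLC30A1 had 119, 123 and 123 CPM with L-asparaginase, against 35.6, 49.5 and 31.4 CPM in untreated cells (log2 fold change 1.65 ± 0.17 (SE), adjusted p = 0.0006), and MT1G (1.31 ± 0.18), MT1F (1.06 ± 0.16) and MT2A (1.05 ± 0.21), which bind zinc, rose as well.

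Other large changes were seen outside the lists, apart from HIST1H1T, which is part of the wider histone set above. They are among the largest of the called genes without overlap, with a mean log2 CPM of 1 or more, that were also called without untreated A and without L-asparaginase C. THBS1 (thrombospondin), a secreted matrix protein, had 43.4, 40.4 and 48.9 CPM with L-asparaginase, against 3.19, 2.80 and 2.74 CPM in untreated cells (log2 fold change 3.93 ± 0.15 (SE), adjusted p = 1.46e-05). KCNJ2, an inward-rectifier potassium channel, had 13.7, 11.96 and 15.1 CPM with L-asparaginase, against 1.65, 1.58 and 1.96 CPM in untreated cells (log2 fold change 2.97 ± 0.18 (SE), adjusted p = 0.000125). SLC12A8, a membrane carrier, had 8.85, 11.7 and 11.04 CPM with L-asparaginase, against 0.997, 0.732 and 0.646 CPM in untreated cells (log2 fold change 3.75 ± 0.23 (SE), adjusted p = 0.000125). BAMBI, a pseudoreceptor of TGF-beta signals, and KLHL14, a ubiquitin ligase adaptor, lay at low levels, with 4.37, 4.40 and 5.32 CPM with L-asparaginase, against 0.569, 0.399 and 0.297 CPM in untreated cells for BAMBI and 4.67, 3.20 and 4.03 CPM with L-asparaginase, against 0.598, 0.377 and 0.332 CPM in untreated cells for KLHL14. HIST1H1T, a linker histone otherwise known from testis, had 43.4, 72.9 and 70.8 CPM with L-asparaginase, against 4.47, 7.30 and 3.81 CPM in untreated cells (log2 fold change 3.59 ± 0.30 (SE), adjusted p = 0.000304). ADAMTSL2 (3.08 ± 0.35), UNC5B (2.97 ± 0.26) and LRRC2 (3.56 ± 0.39) were also among the largest rises. Each of these rises kept its call in all 13 alternative fits.

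On the side of the falls, ITGA8, an integrin chain, had 6.33, 7.84 and 8.35 CPM with L-asparaginase, against 55.6, 43.0 and 46.6 CPM in untreated cells (log2 fold change -2.68 ± 0.16 (SE), adjusted p = 0.000125). TUBA1A, an alpha-tubulin, had 21.6, 17.5 and 19.6 CPM with L-asparaginase, against 104, 105 and 95.5 CPM in untreated cells (log2 fold change -2.38 ± 0.13 (SE), adjusted p = 0.000101). F2R (PAR1), the thrombin receptor, had 3.31, 4.14 and 3.74 CPM with L-asparaginase, against 20.2, 24.9 and 29.1 CPM in untreated cells (log2 fold change -2.72 ± 0.18 (SE), adjusted p = 0.000147). TNFRSF10D, a decoy receptor for the death ligand TRAIL, had 0.979, 1.49 and 1.63 CPM with L-asparaginase, against 4.64, 4.82 and 8.68 CPM in untreated cells (log2 fold change -2.13 ± 0.31 (SE), adjusted p = 0.00214). FAM46C, a poly(A) polymerase of B cells, had 1.05, 1.29 and 0.580 CPM with L-asparaginase, against 3.30, 4.97 and 4.57 CPM in untreated cells (log2 fold change -2.11 ± 0.31 (SE), adjusted p = 0.00225), and FAM172A fell by 2.06 on the log2 scale. The noncoding LINC00616 (-2.73 ± 0.19), RP11-1018N14.5 (-2.96 ± 0.24) and RP5-1028K7.2 (-2.13 ± 0.21), the pseudogene GTF2IP4 (-2.28 ± 0.33) and AC144530.1 (-2.21 ± 0.47, adjusted p = 0.00972, call lost without L-asparaginase A at an adjusted p of 0.0533) fell as well. GTF2IP4 and AC144530.1 were highest in untreated A, at 13.8 and 9.11 CPM, with 5.92 and 2.40 CPM in untreated B.

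The response of SUPB15 was set against the mean response of the 6 other lines, which are the B-cell precursor lines 697, Nalm6, REH and RS411 and the T-cell lines CEM and DND41, with 3 treated and 3 untreated libraries each. In a model over all 42 libraries the difference passed the test for 385 genes above (1.83% of the 20983 tested) and 251 below (1.2%), 636 together (3.03%). A gene without counts in a whole group of any line, SUPB15 included, cannot be compared in this way. Such a group was found for 5007 genes, among them THBS1, KLHL14, KCNJ2, CEACAM6, F2R and ITGA8. Of the 636, 30 were of this kind, and their fitted values are no bound on the fold. Of the 3948 genes changed in SUPB15 and tested here, 466 (11.8%) differed from the other lines. Of these, 259 were higher in SUPB15 and above the others, 206 lower and below, 1 lower and above, and none higher and below. The SUPB15 libraries enter both the call and the difference. The like directions and the share of 11.8% therefore follow in part from that selection. Without L-asparaginase C the count of 636 became 323, and against the 4 other B-cell precursor lines alone it was 1014. With the letter as a block it was 1033, and without the first untreated library of each line 1586.

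CHAC1, DDIT3 and ATF3 responded more in SUPB15 than in the mean of the other lines. CHAC1 had a log2 fold change of 4.07 in SUPB15, against -0.10, 1.96, 2.20, 2.68, 3.05 and 0.82 in 697, Nalm6, REH, RS411, CEM and DND41 (difference from their mean 2.30 ± 0.48, adjusted p = 0.00349). DDIT3 had 3.38, against 1.58, 2.47, 1.95, 2.82, 2.71 and 1.06 in the same order (difference 1.29 ± 0.21, adjusted p = 0.000349). ATF3 had 2.66, against -0.37, 0.71, 0.59, 2.17, 1.06 and 1.62 (difference 1.69 ± 0.35, adjusted p = 0.00334). SUPB15 had the largest value of the 7 lines for all 3 genes. The difference of CHAC1 kept its call in every alternative fit, while those of DDIT3 and ATF3 were not checked in these fits. INHBE differed by 2.26 ± 0.55, adjusted p = 0.0157, and that call was lost without untreated A (adjusted p = 0.0723) and without L-asparaginase C (adjusted p = 0.0519). For TRIB3, SLC7A11 and SESN2 the difference did not pass the test. TRIB3 differed by 0.31 ± 0.44, adjusted p = 1, SLC7A11 by -0.35 ± 0.37, adjusted p = 0.888 and SESN2 by 1.02 ± 0.46, adjusted p = 0.286. ASNS had 0.29 in SUPB15, against 2.29, 0.55, 1.43, -0.06, 2.48 and 0.51 in the others, and the difference of -0.90 ± 0.32, adjusted p = 0.13 did not pass the test. The SUPB15 value of ASNS rests on low levels of 1.05 to 1.81 CPM. Its mean log2 CPM was 0.47 in SUPB15, against 5.86 over all 42 libraries. Over all genes tested in this model 1.83% lay above the other lines and 1.2% below. Of 24 integrated stress response genes 6 lay above and none below, and of 12 snoRNA hosts 4 above and none below. Of 79 ribosomal proteins none lay above and 6 below. Other lists differed too. Of 26 immediate early genes 6 lay above and none below, and of 32 DNA replication genes 4 above and none below. Of 26 glycolysis genes 4 lay above and 1 below, and of 24 splicing genes none above and 4 below.

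Outside the stress programme, SLC12A8 differed by 2.83 ± 0.43, adjusted p = 9.82e-05, HIST1H1T by 2.72 ± 0.45, adjusted p = 0.00032 and LRRC2 by 2.12 ± 0.38, adjusted p = 0.000761. SLC12A8 had a log2 fold change of 3.77 in SUPB15, against 2.56, 0.42, -1.24, 2.64, 0.27 and 0.98 in the same order of lines. HIST1H1T had 3.61, against -0.63, -0.27, 1.45, 1.58, 1.10 and 2.12. For LRRC2 it was 3.58, against 1.71, 0.42, 1.53, 1.07, 1.77 and 2.24. BAMBI differed by 2.82 ± 0.65, adjusted p = 0.00907, and without the first untreated library of each line the fitted difference was 2.82 with an adjusted p of 1. MOB3B (2.03 ± 0.52, adjusted p = 0.0225), a regulator of Hippo-type kinases, and ARRDC4 (2.00 ± 0.33, adjusted p = 0.000329), a relative of ARRDC3 and TXNIP, were above as well. HBEGF, an EGF-receptor ligand, rose by 1.42 in SUPB15, against 0.23, -1.44, -1.72, 0.81, -1.69 and -0.13 (difference 2.07 ± 0.48, adjusted p = 0.0109), and its call was lost without untreated A (adjusted p = 0.0556) and without L-asparaginase C (adjusted p = 0.0579). VDR, the vitamin D receptor, was above by 2.10 ± 0.49, adjusted p = 0.012. It had a group of another line at 0 counts, so this size is no bound. Against the 4 other B-cell precursor lines the difference of VDR was 1.60, adjusted p = 0.00303. Below the other lines lay UST (-2.09 ± 0.35, adjusted p = 0.000328), a sulfotransferase, with -1.92 in SUPB15, against 0.04, 2.06, -0.62, -1.10, 0.77 and -0.12. TUBA1A had -2.36, against 0.07, -0.58, -0.47, -1.11, -1.21 and -1.23 (difference -1.60 ± 0.16, adjusted p = 1.58e-07), and VIM-AS1 (-1.73 ± 0.30, adjusted p = 0.000496), antisense to vimentin, CMTM2 (-1.61 ± 0.31, adjusted p = 0.00168), ZMAT3 (-1.502 ± 0.30, adjusted p = 0.00228) and FAM172A (-0.999 ± 0.19, adjusted p = 0.00126) were below too. ZMAT3 had -2.36 in SUPB15, against 0.23, -0.64, -0.03, -1.80, -1.43 and -1.47 in the same order. For FAM172A it was -2.04, against -0.64, -0.75, -0.40, -1.85, -1.37 and -1.25. The differences of ZMAT3 and FAM172A were not checked in the alternative fits. CST7 differed by -1.69 ± 0.48, adjusted p = 0.0464, lost without untreated A (adjusted p = 0.0999) and without L-asparaginase C (adjusted p = 0.117). NELL2, MTUS2, CD44, RP11-359G22.2 and ANTXR2 were below with differences of -3.71, -2.81, -2.46, -2.06 and -2.05, but each had at least 1 group of another line at 0 counts, so the sizes are no bound. In SUPB15 itself CD44, an adhesion receptor, had 5.57, 5.10 and 4.85 CPM with L-asparaginase, against 11.1, 9.47 and 11.1 CPM in untreated cells.

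**Figure D5:**
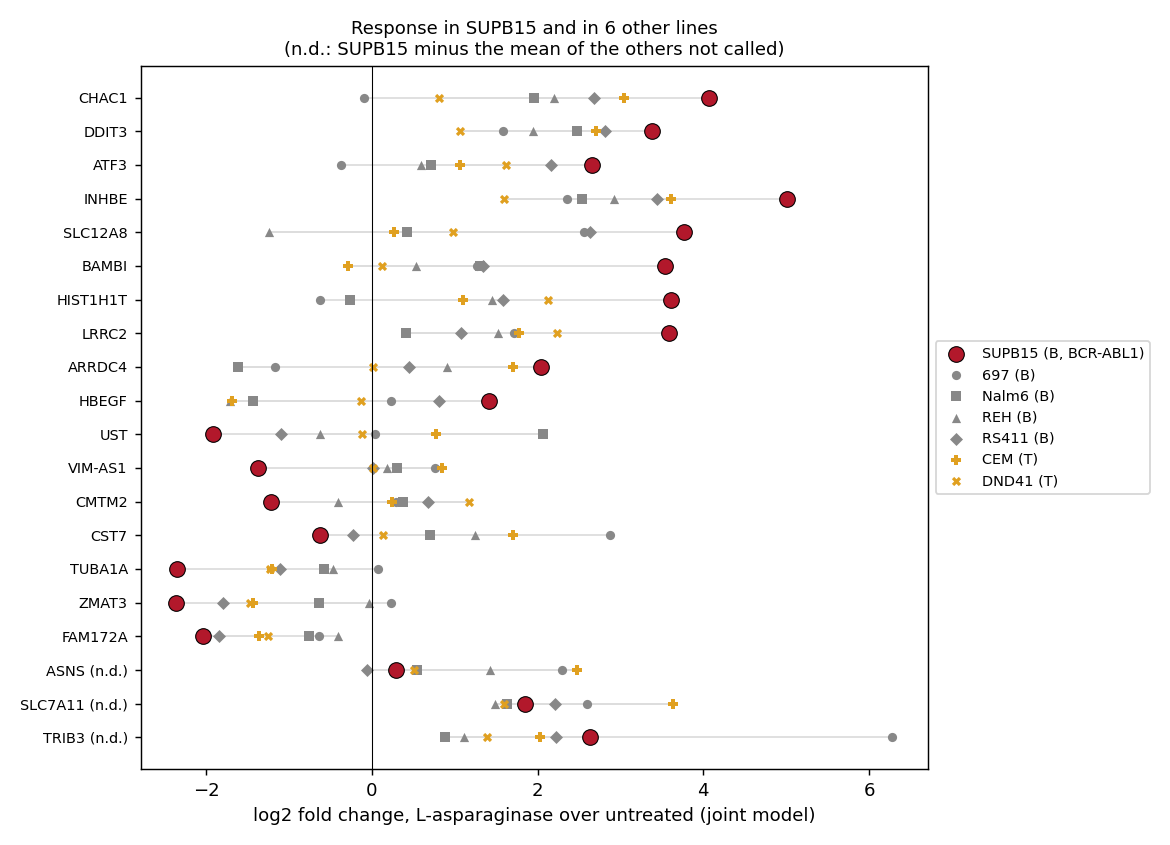
Log2 fold change of L-asparaginase over untreated (horizontal axis) from the model over 42 libraries, for 20 genes (rows), in SUPB15 (large red circles), the 4 other B-cell precursor lines (grey) and the 2 T-cell lines (yellow). SUPB15 lies outermost for the 17 genes whose difference passed the test, such as CHAC1 at 4.07. Most of them were chosen for a large difference, so this follows in part from the selection. For ASNS, SLC7A11 and TRIB3 (n.d.) SUPB15 lies within the range of the other lines.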

How the data were processed

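RNA sequencing of 7 leukaemia lines, each with 3 L-asparaginase and 3 untreated libraries, was used. The deposited tables hold raw read counts per gene symbol, made by the authors. The genome build was hg19, per the submitters' processing notes, while aligner, counter, annotation and strand setting were not given in the sources used here. Reads of overlapping or antisense genes may therefore not be told apart. Columns lettered A, B and C name the group but not which replicate number they are. Library sizes were adjusted by TMM, genes were filtered with filterByExpr at a minimum count of 10, and the SUPB15 groups were compared with edgeR 4.0.16 (quasi-likelihood test, R 4.3.3), with Benjamini-Hochberg adjustment over all tested genes at 0.05. The other lines entered 1 model over 42 libraries. Levels are CPM on adjusted library sizes. Alternatives used DESeq2 1.42.0 and other settings, and limma 3.58.1 was loaded with edgeR. Tables and figures were made with Python 3.11.15, pandas 2.3.3 and matplotlib 3.10.9. The test was checked on simulated counts.

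The gene lists and the groups of genes described were chosen with earlier results of these data known. Named genes are the largest rises and falls that also passed without untreated A and without L-asparaginase C, 12 stress genes, the most changed members of each list, all members of 6 lists, the largest differences from the other lines and the highest foreign transcripts, plus genes added because their role is of interest. Same-lettered libraries deviated together from their group means, with correlations of 0.187, 0.218 and 0.214 over 8979 genes. Between unlike letters the correlations were -0.231 to 0.137, the highest for L-asparaginase B with untreated C. The main fits did not pair the libraries, and the letter entered as a block only in alternative fits. A total of 26 symbols that had been turned into dates are not named. Not all genes that the rule names are described.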

Additional observations from a re-analysis of the deposited data

Results flagged for a closer look

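The responses of 20 genes in SUPB15 differed from the mean response of the other 6 lines, by the test of the difference itself in the model over 42 libraries (edgeR's quasi-likelihood test, Benjamini-Hochberg adjusted). Values are differences of log2 fold changes, SUPB15 minus the others. Above the other lines were SLC12A8 by 2.83, BAMBI by 2.82, HIST1H1T by 2.72, CHAC1 by 2.30, INHBE by 2.26 and LRRC2 by 2.12. VDR by 2.10, HBEGF by 2.07, MOB3B by 2.03 and ARRDC4 by 2.00 were above as well. Below the other lines, NELL2 differed by -3.71, MTUS2 by -2.81, CD44 by -2.46, UST by -2.09 and RP11-359G22.2 by -2.06. ANTXR2 differed by -2.05, VIM-AS1 by -1.73, CST7 by -1.69, CMTM2 by -1.61 and TUBA1A by -1.60. Of these, TUBA1A had the lowest adjusted p (1.58e-07) and CST7 the highest (0.0464). VDR, NELL2, MTUS2, CD44, RP11-359G22.2 and ANTXR2 had no counts in at least 1 group of another line, so their sizes are no bound.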

How the results depend on the processing

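Against 3950 changed genes, leaving out 1 library gave 1716 to 6328, with 896 to 3365 higher and 820 to 2963 lower. Leaving out both untreated A and L-asparaginase C gave 6061, of which 3252 were higher. Requiring at least 2-fold gave 1299. DESeq2 gave 4646, and other scalings and filters 3897 to 4008. With the letter as a replicate block 4032 genes changed in SUPB15. The difference from the other lines, 636 genes, was called for 1014 against the other 4 B-cell precursor lines, 1586 without the first untreated library of each line, 1033 with the replicate block, and 323 to 492 without L-asparaginase C or untreated A. The cause was not tested. Of 254 named genes called in SUPB15, 172 kept their call in all alternatives, 82 lost it in at least 1, and 0 changed sign. Of the named genes not called, MYC had a log2 fold change of 0.00037 without untreated A and L-asparaginase C, against -0.09 with all libraries. Each group is 3 libraries of 1 line.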
